A study of Mus musculus with 15 samples.

Results

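Zinc transporters and metallothioneins were followed in gastrocnemius, a muscle of the calf, taken from C57BL/6 male mice at an age of 12 months. The genes were 9, namely the importers Slc39a10, Slc39a1, Slc39a7 and Slc39a14, the exporters Slc30a1 and Slc30a9, the metallothioneins Mt1 and Mt2, and the regulator Mtf1. They were chosen by gene symbol, and all probe sets whose single platform symbol was one of these were taken, 10 of 35556 on the array. All 9 passed the filter on low signal, among 12056 genes tested. The groups were Sirt3 knockout mice on calorie restriction (CR, n = 4), Sirt3 knockout mice on control diet (n = 4), wildtype mice on CR (n = 4) and wildtype mice on control diet (n = 3), with 1 mouse per array. Sirt3 encodes a mitochondrial NAD-dependent deacetylase. The degree and duration of CR, the diet's composition and the tissues in which Sirt3 was deleted are not described in the labels. Values are log2 intensities that the authors processed with RMA, so a difference of 1 is a doubling of signal, and the number of arrays limits the precision of every comparison.

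The list was chosen with earlier results of these arrays in view, in which Slc39a10 was among the few genes called lower on CR in wildtype mice. Differences between the diets in wildtype mice, averages over the genotypes and differences between the genotypes in diet response are therefore descriptions with no p-value. The standard errors and 95% intervals printed with them show only the spread between arrays. Comparisons between the diets in knockout mice use arrays outside that wildtype contrast, but their limma standard errors share the spread of all groups. Earlier results of these arrays were known when the list was set, so the knockout comparisons may not be independent of the choice.

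Zinc is carried into the cytosol, from outside the cell or from organelles, by the Slc39 (ZIP) family and out of the cytosol by the Slc30 (ZnT) family. Metallothioneins are small cysteine-rich proteins that bind zinc and copper and buffer the free metal. MTF-1, encoded by Mtf1, is a zinc finger transcription factor that binds metal response elements when cytosolic zinc rises and activates metallothionein genes and Slc30a1, while in mouse cells it represses Slc39a10. Metallothionein genes also respond to glucocorticoids and to inflammatory cytokines, and Slc39a14 is induced by interleukin-6 in mouse liver.

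Because Mt1, Mt2 and Slc30a1 are the textbook targets of MTF-1 and because the levels of Mt1 and Mt2 varied together on these arrays, promoter sequence of these genes is shown, 250 bases for Mt2 and short stretches around 1 match each for Mt1 and Slc30a1. The sequences are from RefSeq, build GRCm38.p6, plus strand, written 5′ to 3′, and positions are counted from the start site of the promoter table. Capitals mark the 7-letter core of the metal response element, searched as TGCACNC and TGCGCNC on both strands, so that a match on the other strand reads GNGTGCA or GNGCGCA.
Mt2 promoter, chr8:94172368-94172617: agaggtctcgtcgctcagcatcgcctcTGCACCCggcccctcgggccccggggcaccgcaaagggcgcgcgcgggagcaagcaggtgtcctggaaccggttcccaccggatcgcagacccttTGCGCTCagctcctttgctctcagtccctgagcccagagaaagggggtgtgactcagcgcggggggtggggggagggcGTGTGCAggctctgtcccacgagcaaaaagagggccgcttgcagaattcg
Mt1 match at position -23, chr8:94179056-94179082: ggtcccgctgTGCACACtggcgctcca
Slc30a1 match at position -43, chr1:191906728-191906754: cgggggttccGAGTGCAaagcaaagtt
In windows of 300 bases, 250 before the start and 50 after it, Mt2 held 4 matches, Mt1 held 3 and Slc30a1 held 2. Of 32851 such promoter windows in the table, 0.517% held 4 or more matches, 1.97% held 3 or more, 7.11% held 2 or more and 25.7% held at least 1. In Mt2 the matches began at positions -223, -128, -50 and 5. In Mt1 the other two lay after the start, at positions 3 and 21, and in Slc30a1 the other lay at position 31. The gene records of Mt1 and Slc30a1 begin before the start site of the table, so their windows cover part of the annotated gene. The windows of Slc39a10 (2 annotated starts), Slc39a1, Slc39a7, Slc30a9 and Mtf1 held none of these letters. 8 of the 9 genes had a window. A match is a run of letters, and binding was not measured here.

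Arrays differed in transcripts of other tissues, and this touches the values below. The 10 skeletal muscle markers averaged 12.45 to 12.65 on every array. They were lowest on wildtype control replicates 1, 2 and 3, at 12.48, 12.45 and 12.50. Testis transcripts (20 male germ cell genes) exceeded the median array by 3.57 log2 units on knockout control replicate 1 and by 4.14 on wildtype control replicate 3. Transcripts of the exocrine pancreas (11 acinar genes) exceeded it by 7.24 on wildtype control replicate 2. Liver transcripts (15 genes) exceeded it by 2.66 on wildtype CR replicate 4. On the other arrays these sets were at most 1.62 above it. Tendon transcripts (7 genes) were at 0.43, 0.63 and 0.36 relative to the median array in wildtype control muscle. In wildtype CR muscle they were at -0.71, 0.10, 0.02 and -0.14, without overlap. They were at 0.16, 0.11, 0 and -0.25 in knockout control muscle, and at -0.01, -0.47, -0.02 and -0.81 in knockout CR muscle. The part of tendon in the values below was not tested. The Sirt3 transcript was at 4.94 to 6.19 on knockout arrays and at 6.38 to 6.68 on wildtype arrays, without overlap (exact two-sided permutation p = 0.000622 over 6435 splits, n = 8 and 7). Where its probes lie relative to the knockout allele was not examined.

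Slc39a10 (ZIP10), a plasma membrane importer located at chr1:46807544-46925776 in GRCm38.p6, was lower in the CR group of both genotypes. It was at 5.83, 5.65, 6.06 and 5.75 in knockout CR muscle, against 6.20, 6.31, 6.24 and 6.18 in knockout control muscle. In wildtype CR muscle it was at 5.90, 5.97, 6.03 and 6.11, against 6.34, 6.88 and 6.89 in wildtype control muscle. The diet groups did not overlap in either genotype, and the highest of 8 CR arrays, 6.11, lay below the lowest of 7 control arrays, 6.18. Of the 12056 genes tested, 0.108% had every CR array below every control array, and 0.382% had lower CR values without overlap within both genotypes. Slc39a10 was in part chosen for this pattern.

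**Figure D1:**
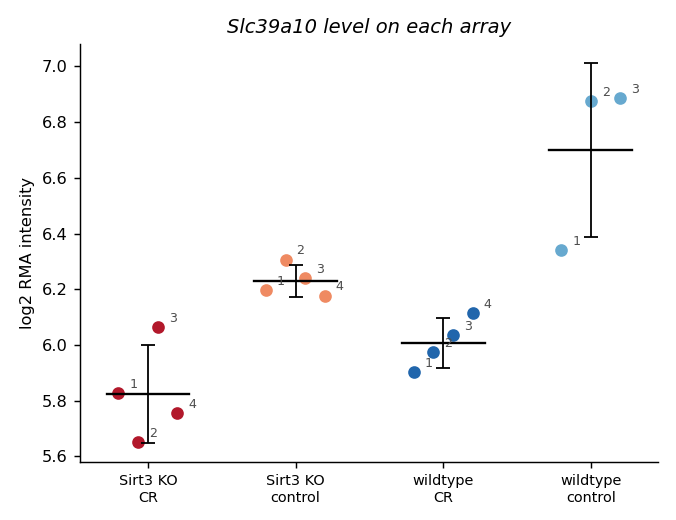
Slc39a10 level (log2 RMA intensity, vertical axis) on each of 15 arrays in 4 groups, with the replicate number beside each point, a bar at the mean and whiskers of 1 SD. All CR arrays lie at or below 6.11 and all control arrays at or above 6.18, and wildtype control replicates 2 and 3 are the highest.

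In knockout mice, the diet difference of Slc39a10 was -0.41 (SE 0.11, 95% interval -0.65 to -0.16), or 0.755 of the control signal. Its levels on knockout arrays, 5.65 to 6.31, were not far above the low-signal filter of 5.32. The means were 5.82 ± 0.18 on CR and 6.23 ± 0.06 on control diet (SD, n = 4 each). An exact permutation test gave a two-sided p of 0.0286, the smallest that 4 against 4 arrays allow, and over the 9 genes so tested the adjusted p was 0.257. Over all 12056 genes the limma adjusted p was 0.219, so the difference did not pass the threshold of 0.05. Without 1 array it stayed between -0.49 and -0.35, and without knockout control replicate 1, the array with germ cell transcripts, it was -0.42. In wildtype mice the means were 6.01 ± 0.09 on CR (SD, n = 4) and 6.70 ± 0.31 on control diet (SD, n = 3), a difference of -0.69 (SE 0.12). In bulk muscle, fewer cells of a type and less RNA per cell cannot be told apart.

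The size of the wildtype difference rested on 2 control arrays. Wildtype control replicates 2 and 3, at 6.88 and 6.89, are the arrays that carry the pancreatic and the germ cell transcripts. Their part in the wildtype result was not tested. Without the 4 arrays where testis, pancreas or liver transcripts exceeded the median array by over 2 units, the wildtype difference was -0.37. The only wildtype control was then replicate 1, at 6.34. That array still exceeded the median array by 1.48 for liver and by 0.62 for pancreas transcripts. The knockout difference was -0.42, with knockout control replicate 2, at 1.62 for liver transcripts, still included. Knockout control replicate 1, the other germ cell array, was at 6.20, within the 6.18 to 6.31 of its group. The diet difference in knockout minus that in wildtype mice was 0.29 (95% interval -0.07 to 0.65) with all arrays and -0.05 without the 4 arrays.

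By group mean, Slc39a10 was lowest in knockout CR, then wildtype CR, then knockout control, and highest in wildtype control muscle. Wildtype CR and knockout control differ in both diet and genotype, and this pair was not tested. Knockout CR and wildtype CR overlapped, at 5.65 to 6.06 and 5.90 to 6.11, with a difference of -0.18 (95% interval -0.43 to 0.06). Knockout control and wildtype control did not overlap, at 6.18 to 6.31 and 6.34 to 6.89, with a difference of -0.47 (SE 0.12). Across all genes tested, 5% did not overlap in this comparison. The wildtype control arrays enter both this difference and the diet difference that singled the gene out, so no test is given. Without the 4 arrays of other tissues the difference between the control groups was -0.10.

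The genes whose deviations from their group means were most like those of Slc39a10 over the 15 arrays were Cdyl2, Ankrd1 and Azin1. The correlations were r = 0.90 (Spearman 0.86) for Cdyl2, r = 0.90 (Spearman 0.83) for Ankrd1 and r = 0.89 (Spearman 0.84) for Azin1. Without wildtype control replicate 1 and knockout CR replicate 3, the arrays farthest from the median, they were 0.85, 0.82 and 0.82. Ankrd1 encodes a stretch-responsive sarcomere protein and Azin1 the antizyme inhibitor that raises ornithine decarboxylase activity. These genes were picked as the most similar of 12056, so the correlations are descriptions, and arrays that carry other tissues are among their points.

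Of the other 3 importers, none passed the test in knockout mice. Slc39a1 (ZIP1), a plasma membrane importer with broad expression, averaged 7.06 ± 0.13 in knockout CR and 7.18 ± 0.18 in knockout control muscle (SD, n = 4 each), a difference of -0.11 (95% interval -0.34 to 0.11, limma adjusted p = 0.685). In wildtype muscle Slc39a1 averaged 7.11 ± 0.12 on CR and 7.24 ± 0.21 on control diet, a difference of -0.12. Errors here and below are SDs over 4 arrays per group and over 3 in wildtype control muscle. The diet groups overlapped in both genotypes. Its second probe set differed by -0.08 between the diets in knockout and by -0.03 in wildtype mice, so both probe sets had a small negative difference.

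Slc39a7 (ZIP7), which releases zinc from the endoplasmic reticulum and Golgi, was the steadiest of the 9 genes. Its group means were 6.66 ± 0.02 in knockout CR, 6.66 ± 0.06 in knockout control, 6.66 ± 0.05 in wildtype CR and 6.67 ± 0.004 in wildtype control muscle. The lowest of 15 arrays was 6.59 and the highest 6.71. Its pooled SD within groups, 0.0415, was larger than that of only 0.224% of the genes tested. The diet difference in knockout mice was 0.01 (95% interval -0.10 to 0.11, limma adjusted p = 0.966).

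Slc39a14 (ZIP14), an importer of zinc, manganese and iron, was at 6.04, 6.34, 6.27 and 6.45 in knockout CR muscle, against 5.98, 6.24, 8.08 and 6.55 in knockout control muscle. In wildtype CR muscle it was at 6.29, 6.24, 6.14 and 6.91, against 6.48, 6.33 and 6.04 in wildtype control muscle. Knockout control replicate 3, at 8.08, was far above the next array, wildtype CR replicate 4, at 6.91. The groups overlapped, and the knockout diet difference of -0.44 (95% interval -1.17 to 0.29, limma adjusted p = 0.622) was 0.02 without that array.

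Of the exporters, Slc30a1 (ZnT1), the plasma membrane exporter that MTF-1 activates, differed by 0.02 between the diets in knockout mice (95% interval -0.19 to 0.23, limma adjusted p = 0.946). Its levels were 6.30 ± 0.09 in knockout CR, 6.28 ± 0.16 in knockout control, 6.29 ± 0.13 in wildtype CR and 6.17 ± 0.19 in wildtype control muscle. Slc30a9 (ZnT9), a mitochondrial zinc transporter, differed by 0.02 in knockout mice (95% interval -0.15 to 0.20, limma adjusted p = 0.933). It averaged 7.86 ± 0.08 in knockout CR and 7.84 ± 0.14 in knockout control muscle, and 7.82 ± 0.10 in wildtype CR and 7.99 ± 0.12 in wildtype control muscle. Both genes overlapped between all 4 pairs of groups compared.

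Mtf1 itself was at 7.06 ± 0.05 in knockout CR and 7.10 ± 0.18 in knockout control muscle, and at 7.11 ± 0.19 in wildtype CR and 7.03 ± 0.34 in wildtype control muscle. The knockout diet difference was -0.04 (95% interval -0.33 to 0.24, limma adjusted p = 0.915). The highest Mtf1 value, 7.42, was on wildtype control replicate 3, the array with the strongest germ cell transcripts, and the other wildtype control arrays were at 6.80 and 6.87.

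**Figure D2:**
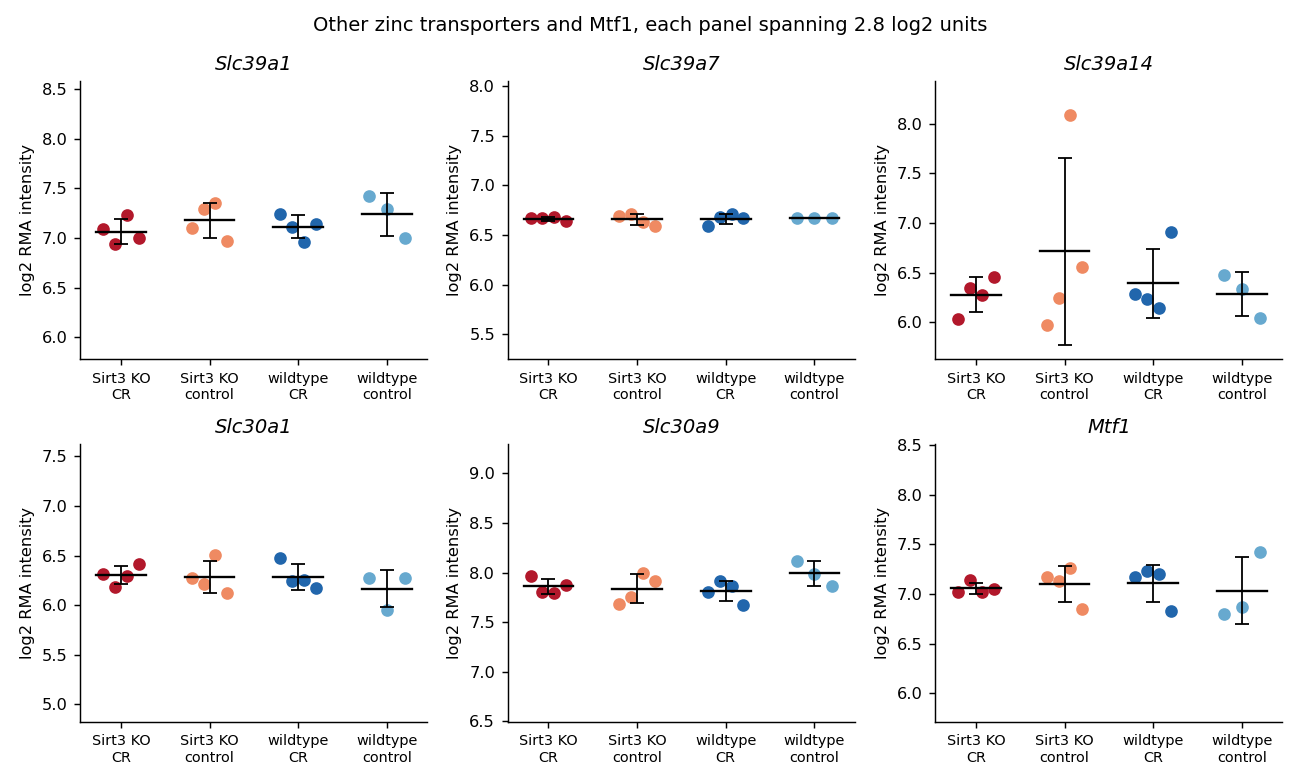
Levels of Slc39a1, Slc39a7, Slc39a14, Slc30a1, Slc30a9 and Mtf1 (log2 RMA intensity, vertical axis) on each array in 4 groups, with means and whiskers of 1 SD. The vertical axes span the same range in every panel, and the one array far from its group is knockout control replicate 3 for Slc39a14, at 8.08.

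The metallothioneins varied widely between mice of the same group. Mt1 was at 9.27, 9.47, 9.64 and 10.64 in knockout CR muscle, against 9.18, 9.77, 11.59 and 10.20 in knockout control muscle. In wildtype CR muscle Mt1 was at 9.73, 9.29, 9.96 and 10.81, against 9.72, 9.37 and 10.06 in wildtype control muscle. The highest array was again knockout control replicate 3, and the next were wildtype CR replicate 4 and knockout CR replicate 4.

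Mt2 was at 10.33, 10.71, 11.26 and 12.20 in knockout CR muscle, against 10.58, 11.41, 12.96 and 11.79 in knockout control muscle. In wildtype CR muscle Mt2 was at 11.61, 10.83, 11.58 and 12.50, against 11.84, 11.51 and 11.87 in wildtype control muscle. The same 3 arrays were highest, and all diet groups overlapped. The pooled SD within groups was 0.721 for Mt1 and 0.762 for Mt2, against a median of 0.134 over all genes tested, and was larger than that of 98.4% and 98.6% of them.

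**Figure D3:**
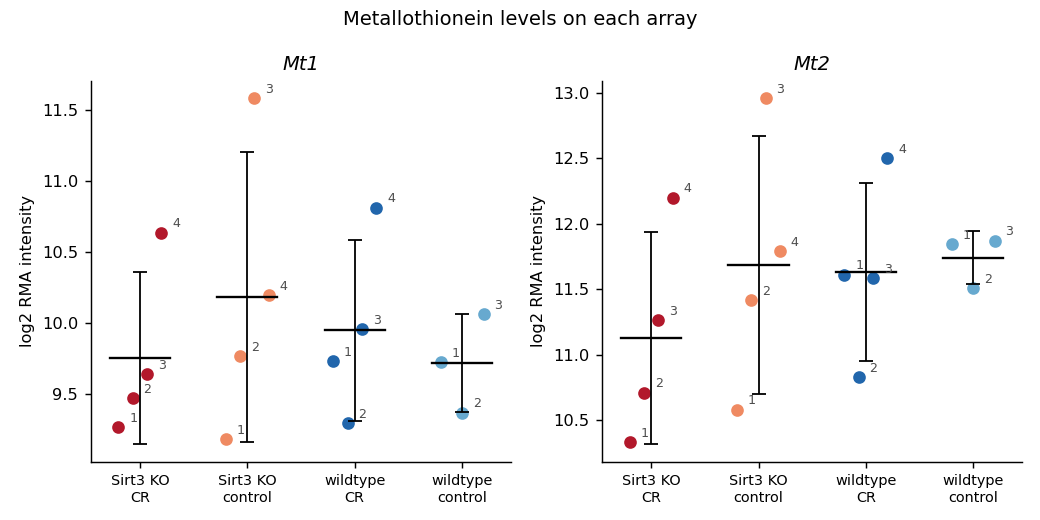
Mt1 and Mt2 levels (log2 RMA intensity, vertical axes) on each array in 4 groups, with replicate numbers, means and whiskers of 1 SD. Knockout control replicate 3 is the highest array for both genes, at 11.59 and 12.96, and the groups overlap throughout.

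With this spread, the diet difference in knockout mice was -0.43 (95% interval -1.40 to 0.54, limma adjusted p = 0.724) for Mt1. For Mt2 it was -0.56 (95% interval -1.58 to 0.47, limma adjusted p = 0.655). Without knockout control replicate 3 the values were 0.04 and -0.14. In wildtype mice the differences were 0.23 for Mt1 and -0.11 for Mt2, and both changed sign when 1 array was left out, with ranges of -0.06 to 0.45 and -0.40 to 0.16. Mt1 was at -0.06 without wildtype CR replicate 4 and Mt2 at 0.16 without wildtype CR replicate 2. The 95% interval in wildtype mice was -0.82 to 1.28 for Mt1, which includes a doubling, and -1.22 to 1.00 for Mt2, which includes a difference of -1.

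Within groups, Mt1 and Mt2 deviated together, with r = 0.97 (Spearman 0.94) over 15 arrays and 0.95 without the 2 arrays farthest from the median. Mt2 was the gene most like Mt1 among all those tested. The next were Car14, a membrane carbonic anhydrase, with r = 0.95 (Spearman 0.78), and 6430548M08Rik, with r = 0.90 (Spearman 0.79). Both metallothionein genes lie side by side, Mt2 at chr8:94172618-94173567 and Mt1 at chr8:94178883-94180327, and their coding sequences are alike. Whether a probe of one gene also detects the other was not tested.

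Slc39a14 followed the metallothioneins, with r = 0.83 (Spearman 0.56) against Mt1 and r = 0.79 (Spearman 0.62) against Mt2. Without knockout control replicates 1 and 3 these were 0.62 and 0.62. Of the 36 pairs among the 9 genes, 3 had r above 0.6, all of them within this trio. The other pairs ran from -0.441 to 0.469. Slc39a7, the steadiest gene, had r = -0.37 with Slc39a14, -0.37 with Mt1 and -0.41 with Mt2. Without wildtype CR replicate 1 and knockout control replicate 4 these were -0.71, -0.67 and -0.61. Mt1 and Mtf1 had r = -0.01, and Slc39a10 and Mt1 had r = 0.08. These are descriptions over arrays that share their groups.

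**Figure D4:**
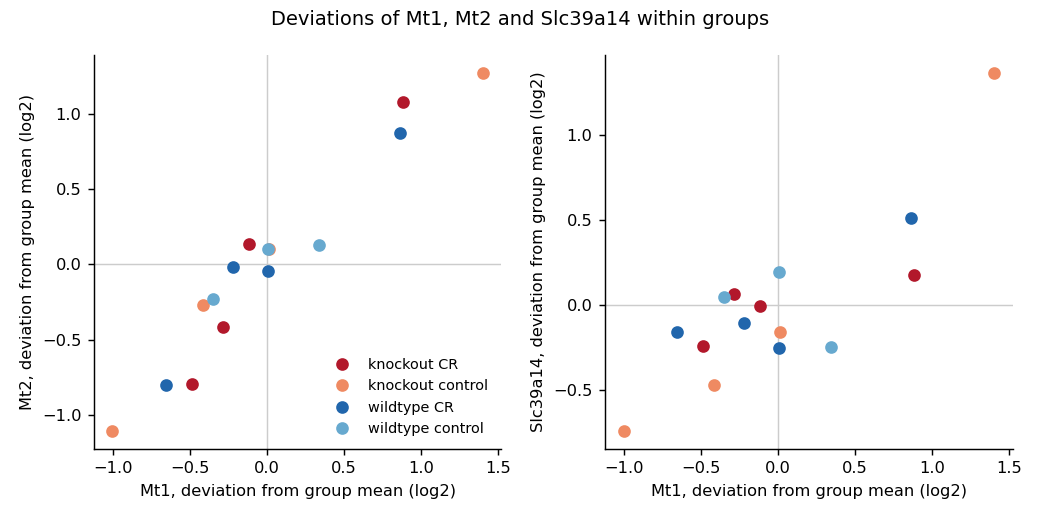
Deviation from the group mean (log2) of Mt2 (left) and Slc39a14 (right) against that of Mt1, 1 point per array, coloured by group. Mt2 follows Mt1 over the whole range (r = 0.97), and the point farthest to the upper right in both panels is knockout control replicate 3.

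The mean of a list of interleukin-6 and STAT3 response genes varied with this trio between mice. The mean of 7 such genes (Socs3, Stat3, Il6ra, Il6st, Bcl3, Osmr and Lcn2) lay 0.519 above the median array on knockout control replicate 3 and 0.274 above it on wildtype CR replicate 4, the highest and second highest of 15 arrays. Of the 7 genes, 2 were at their highest on knockout control replicate 3, and on wildtype CR replicate 4 1 was at its highest and 1 at its lowest. Its deviations within groups had r = 0.90 (Spearman 0.81) with Slc39a14, 0.81 (Spearman 0.68) with Mt1 and 0.81 (Spearman 0.74) with Mt2. Without the 2 arrays farthest from the median these were 0.81, 0.71 and 0.76. Of the 7 genes, Lcn2 had the widest range over the 15 arrays, 5.61 to 8.61, so the mean depends most on it. Socs3 came next, with 5.92 to 7.48. How the mean varied without Lcn2 was not tested, so these correlations may not describe the list as a whole. Lcn2, an acute-phase protein, was at 8.61 on knockout control replicate 3, 7.79 on knockout control replicate 1 and 7.60 on wildtype CR replicate 4, the highest 3 arrays, of which knockout control replicate 1 had the lowest Mt1 and Slc39a14.

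Glucocorticoid response genes were also highest on knockout control replicate 3. The mean of 8 such genes, relative to the median array, was 0.609 there, with 5 of the 8 at their highest, and -1.16 on knockout control replicate 1, with 7 of the 8 at their lowest. The mean was 0.417 on knockout CR replicate 4 and 0.064 on wildtype CR replicate 4. Its correlation within groups was 0.62 (Spearman 0.40) with Mt1, 0.64 (Spearman 0.38) with Mt2 and 0.73 (Spearman 0.64) with Slc39a14. Without the 2 arrays farthest from the median these were 0.39, 0.45 and 0.33. Relative to the median array, liver transcripts were at -0.02 on knockout control replicate 3 and at 2.66 on wildtype CR replicate 4. Liver expresses Mt1, Mt2 and Slc39a14. The part of liver transcripts in the wildtype CR replicate 4 values was not tested.

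Across the comparisons, few of the 9 genes passed. In knockout mice 0 of 9 passed for diet (limma, adjusted p under 0.05), where 0.0664% of all genes tested did, and 1 of 9, Slc39a10, was at an unadjusted p under 0.05, where 12% of all genes were. Slc39a10 was the 1 of 9 whose diet groups did not overlap in knockout mice, where 6.98% of all genes did not. In wildtype mice, the contrast that singled Slc39a10 out, it was the 1 of 9 past the threshold, beside 0.124% of all genes, and the 1 of 9 whose groups did not overlap, beside 12.5%. Averaged over the genotypes, Slc39a10 differed by -0.55 (SE 0.08) and was again the 1 of 9 past the threshold, beside 1.07% of all genes. These counts restate the choice of the gene and are no test of it. The wildtype difference lay at the edge of the threshold. It was -0.87 to -0.60 without 1 array, with -0.87 without wildtype control replicate 1, and was -0.37 without the 4 arrays of other tissues. Averaged over the genotypes it was -0.39 without those 4 arrays. For the difference between the genotypes in their diet response 0 of 9 and 0% of all genes passed in limma, and 0 of 9 were at an unadjusted p under 0.05, against 5.71%. The median diet difference of the 9 genes was -0.11 in knockout and -0.01 in wildtype mice, beside 0.01 and 0.04 over all genes tested.

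**Figure D5:**
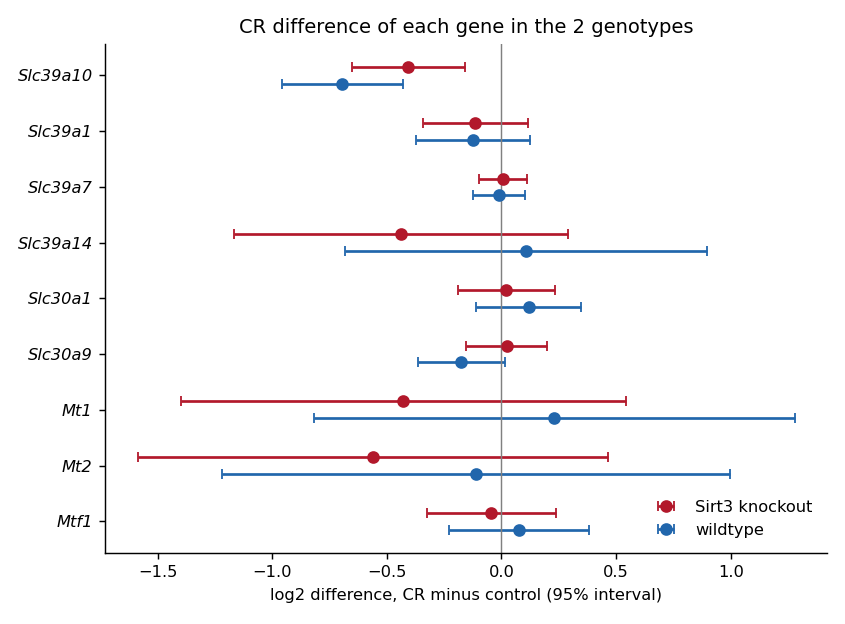
Log2 difference between CR and control diet (horizontal axis, CR minus control) for each of the 9 genes in Sirt3 knockout (red, upper) and wildtype mice (blue, lower), with 95% intervals from limma, a description in wildtype mice. Slc39a10 lies at -0.41 and -0.69, and the intervals of the other genes include 0, those of Mt1 and Mt2 being the widest.

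None of the other 8 genes passed the test between knockout and wildtype muscle. On control diet 0 of 9 genes passed in limma, as did 0% of all genes, and 0 of the 8 genes other than Slc39a10 were at an unadjusted p under 0.05, against 7.03%. The limma adjusted p of these 8 was 0.776 or more. On CR 0 of 9 passed, against 0.0166% of all genes, 0 of 9 were at an unadjusted p under 0.05, against 5.92%, and 0 of 9 did not overlap, against 4.6%. The largest differences on CR by size were in Mt2, at -0.51 (95% interval -1.53 to 0.52, limma adjusted p = 0.940), and Mt1, at -0.20. On control diet Mt1 differed by 0.46 (95% interval -0.58 to 1.51), a value of -0.004 without knockout control replicate 3, and Slc39a14 by 0.43, a value of -0.03 without it. Averaged over the diets 0 of 9 passed in limma, as did 0% of all genes, and 0 of the 8 genes other than Slc39a10 were at an unadjusted p under 0.05, against 7.18%. Slc39a10 differed by -0.33 there, a description with no test. These comparisons share their wildtype arrays with the wildtype diet comparison.

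Among 21 other zinc transporters and zinc proteins, 16 passed the filter, and 0 were called in any of the 7 comparisons in limma. Slc39a4, Slc39a8, Slc39a12, Slc30a8 and Mt4 were below the filter. In knockout mice 0 of the 16 were at an unadjusted p under 0.05, where 12% of all genes were, and the smallest p were of Slc30a4 at -0.22 (limma adjusted p = 0.442) and Slc39a3 at 0.16 (limma adjusted p = 0.553). The median diet difference of the 16 was 0.04 in knockout and 0.09 in wildtype mice, beside 0.01 and 0.04 over all genes. Slc39a5, a transporter known from pancreas, was at 6.73 on wildtype control replicate 2, the array with pancreatic transcripts, and at 5.32 to 5.78 on the others, and was singled out after its values were seen.

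The other lists gave no call either. Of 4 further MTF-1 targets, 0 passed in limma in any of the 7 comparisons, and those with the smallest p for diet in knockout mice were Csrp1, at 0.26 (limma adjusted p = 0.431), and Selenow, at 0.04. Of 8 copper handling genes 0 passed, with Steap3 at -0.13 and Atox1 at 0.12 in knockout mice. Of 8 iron handling genes 0 passed, with Ireb2, which encodes iron regulatory protein 2, at -0.14 and the iron exporter Slc40a1 at 0.28. Of the 8 glucocorticoid response genes 0 passed, with Klf9 at 0.26 and Ddit4 at 0.76 in knockout mice, and of the 7 interleukin-6 and STAT3 genes 0 passed, with Lcn2 at -1.24 (limma adjusted p = 0.324) and Stat3 at -0.14. In knockout mice 0 of the MTF-1 targets, 0 of the copper genes, 1 of the iron genes, 0 of the glucocorticoid genes and 1 of the interleukin-6 genes were at an unadjusted p under 0.05, where 12% of all genes were.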

How the data were processed

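RNA from the muscle of 15 mice was biotin-labelled and hybridised to Affymetrix arrays, 1 mouse per array, per the labels. The deposited log2 intensities were made by the authors with RMA, per the submitters' processing notes. Its version and any hybridisation or scan batch are not stated, so no batch was tested. Array medians were 5.40 to 5.48, and nothing was rescaled. Of 35556 probe sets, 21789 had 1 symbol in the platform annotation, 1621 with several were left out and 12146 were unnamed here. The brightest probe set on average stood for each gene. Genes averaging under 5.32, the 40th percentile of annotated probe sets, were dropped, leaving 12056.

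Each array's group is its labelled genotype and diet. A linear model with 4 group means was fitted across the 15 arrays (limma 3.58.1, R 4.3.3), with moderated standard errors, two-sided tests and Benjamini-Hochberg adjustment over all genes, and the procedure was tested on simulated data. The threshold was 0.05. Exact permutation of arrays served for Sirt3 and for diet in knockout mice. All 9 genes matched RefSeq (GRCm38.p6) by Entrez identifier, and 8 of them had a promoter window. Plots used matplotlib 3.10.9 under Python 3.11.15.

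The 9 genes, the lists and the naming rule were set with earlier results of these data known. The rule names the 9 genes, Sirt3, list genes past the threshold (otherwise the 2 with the smallest p for diet in knockout mice), and the 3 genes most correlated with Slc39a10 and with Mt1. A gene outside it was picked by its values. Alternatives were no filter, the 60th percentile filter, averaged probe sets, quantile normalization, centring, a trended robust prior, array weights, only the groups compared (for the 4 pairwise comparisons), a replicate block, each array left out in turn, and arrays with testis, pancreas or liver transcripts left out.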

Additional observations from a re-analysis of the deposited data

How the results depend on the processing

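None of the 9 genes was called for diet in knockout mice under any alternative, and the Slc39a10 difference there kept its direction, at -0.44 to -0.41 over the settings other than leaving out 1 array and -0.49 to -0.35 without 1 array, with limma adjusted p from 0.0840 to 0.438. The 1 call for diet in wildtype mice, Slc39a10, held with the trended robust prior and without wildtype control replicate 1; it was lost, leaving a count of 0, with every other setting, and the range without 1 array was 0 to 1. Its difference stayed at -0.87 to -0.60 without 1 array and at -0.70 to -0.37 under the other settings, so the loss was one at the edge of the threshold except without the 4 arrays of other tissues, which gave -0.37. With the 60th percentile filter Slc39a10 was not tested. The 1 call averaged over genotypes became 0 with that filter and without the 4 arrays of other tissues, and the number without 1 array was 1 in every fit. For genotype averaged over diets the count was 0 to 1 without 1 array, the 1 being Slc39a10 without wildtype control replicate 1. Without the 4 arrays, 1 wildtype control array was left and was assumed to vary like the others. The Slc39a10 calls above all use the wildtype arrays that singled the gene out. Whether they held is therefore a description and no test of the gene.

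The replicate numbers were not used as pairs, and the sample titles state no pairing. Correlations of same-numbered deviations were -0.18 to 0.09 for diet in knockout mice and -0.02 to 0.20 for diet in wildtype mice. They were -0.64 to 0.15 for genotype on control diet and -0.01 to 0.50 for genotype on CR. In no comparison were all over 0.1. These correlations include the arrays with other tissues and cannot show whether the mice were paired. With a replicate block the Slc39a10 difference in knockout mice was -0.41 (limma adjusted p = 0.259), and genes called there numbered 15 against 8.

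Over all genes, the counts called ranged over the alternatives as follows. For diet in knockout mice they were 0 to 33 against 8. For diet in wildtype mice they were 1 to 33 against 15. For the difference in diet response they were 0 to 5 against 0. For diet averaged over genotypes they were 5 to 259 against 129. For genotype on control diet they were 0 to 8 against 0. For genotype on CR they were 0 to 13 against 2. For genotype averaged over diets they were 0 to 7 against 0.

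Differences that missed the threshold changed sign under some settings, and the cause was not tested. With centring, Slc39a7 was at -0.025 for diet in knockout mice, Slc30a1 was at -0.010 for diet in knockout mice, Slc30a9 was at -0.0094 for diet in knockout mice, Slc39a7 was at -0.023 for genotype on CR, Slc30a1 was at -0.0093 for genotype on CR, Mtf1 was at -0.0040 for genotype averaged over diets. Without the 2 germ cell arrays, Slc30a9 was at -0.027 for diet in knockout mice, Mt2 was at 0.38 for genotype on control diet. Without the 4 arrays of other tissues, Slc30a9 was at -0.027 for diet in knockout mice, Mt2 was at 0.21 for genotype on control diet, Slc39a14 was at 0.054 for genotype on CR, Slc30a1 was at -0.022 for genotype on CR, Slc30a9 was at -0.0017 for genotype on CR, Mt1 was at 0.094 for genotype on CR, Slc30a1 was at -0.0086 for genotype averaged over diets. With array weights, Mt2 was at 0.068 for genotype on control diet, Slc30a1 was at -0.028 for genotype on CR. With quantile normalization, Slc39a7 was at 0.0033 for genotype averaged over diets.

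Other such differences changed sign without 1 array. For diet in knockout mice these were Slc39a7 (-0.016 to 0.027), Slc39a14 (-0.68 to 0.017), Slc30a1 (-0.030 to 0.097), Slc30a9 (-0.027 to 0.075), Mt1 (-0.76 to 0.039), Mtf1 (-0.13 to 0.0087). For genotype on control diet these were Slc39a1 (-0.18 to 0.031), Slc39a7 (-0.035 to 0.0079), Slc39a14 (-0.026 to 0.68), Mt1 (-0.0036 to 0.80), Mt2 (-0.48 to 0.31), Mtf1 (-0.045 to 0.26). For genotype on CR these were Slc39a7 (-0.021 to 0.017), Slc39a14 (-0.20 to 0.054), Slc30a1 (-0.022 to 0.079), Slc30a9 (-0.0017 to 0.076), Mt1 (-0.49 to 0.094). For genotype averaged over diets these were Slc39a7 (-0.018 to 0.0049), Slc39a14 (-0.072 to 0.28), Mt1 (-0.099 to 0.30), Mtf1 (-0.048 to 0.11). For diet in wildtype mice, which carries no test, Slc39a7 (-0.026 to 0.013), Slc39a14 (-0.063 to 0.21), Mt1 (-0.058 to 0.45), Mt2 (-0.40 to 0.16) and Mtf1 (-0.039 to 0.27) also changed sign, and without the 4 arrays Slc39a14 was at -0.26 and Mt1 at -0.065. Slc39a14 was at -0.011 with array weights and -0.015 without the germ cell arrays. Knockout control replicate 3 decided the sign of Mt1 and Slc39a14 for diet in knockout mice. Signal below the filter of 5.32 left 5 zinc genes untested, and the spread of Mt1, Mt2 and Slc39a14 between mice left intervals over 1 log2 unit wide.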
